A study of Mus musculus with 6 samples.

Results

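Immunoglobulin gene segments were described in RNA sequencing of ILC2s (group 2 innate lymphoid cells) that were sorted out of mouse lung. The members are the variable (V), diversity (D), joining (J) and constant (C) segments whose mean over the libraries of the authors' comparison was at least 10 normalized counts, that is, counts put on a common scale between libraries. This gave 72 members of 237 immunoglobulin segments with a row and of 39527 genes in all: 36 at the heavy chain locus (30 V and 6 C), 31 at the kappa locus (30 V and 1 C) and 5 at the lambda locus (2 V and 3 C). The 7 D and 13 J segments all lay under the minimum. Because the mean of the comparison chose the members, the values below are a description of them.

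The study compared KO mice, labelled R5/+LKB1f/f, with WT mice, labelled R5/+, in 3 samples each, and each sample pooled 3 to 4 mice. LKB1, encoded by Stk11, is a kinase upstream of AMPK and related kinases. Both genotypes carry the R5 allele and both received IL-33 for 4 days, so that no group without IL-33 enters. The labels give neither the age of the mice nor what drives the deletion of the floxed allele. The values are the authors' log2 fold change per gene with its standard error (SE), p-value and adjusted p-value, and the table states neither which genotype is the numerator nor how many libraries were fitted. Signs are therefore given as deposited. Stk11, the gene floxed in KO mice, had a mean of 652.3 normalized counts and a log2 fold change of -1.34 ± 0.30 (SE, adjusted p 0.000103) in the authors' deposited table. Negative segments therefore share their sign with Stk11.

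An immunoglobulin is built from a pair of heavy and a pair of light chains. In developing B cells, 1 V segment of each locus is joined to a J segment, with a D segment between them at the heavy locus, and the joined exon is spliced to a C region that sets the isotype of the heavy chain or the kappa or lambda class of the light chain. Plasma cells secrete the product in large amounts, and the joining chain, encoded by Jchain, links IgM and IgA into polymers. ILC2s make no antibody and, as innate cells, are defined without a rearranged receptor, although unrearranged heavy chain constant regions can be transcribed in lymphocytes outside the B lineage. In bulk RNA, fewer cells of a type and less RNA per cell cannot be told apart.

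The identity of the V segments lies in their sequence. The ends of 6 V segments are shown so that segments named in the results below can be told apart by their letters. They are the last 60 bases of the reference transcripts of GENCODE M21 (mm10), 5′ to 3′, before rearrangement trims or extends them. The regions are chr12:114048241-114048300 for Ighv11-2, chr6:67896583-67896642 for Igkv14-126, chr12:114366521-114366580 for Ighv12-3, chr6:68768555-68768614 for Igkv4-91, chr6:70314895-70314954 for Igkv8-21 and chr12:115952538-115952597 for Ighv1-82, of which the kappa segment Igkv14-126 is on the plus strand and the others are on the minus strand. Capitals mark the 9 bases TANTNNTGN, which encode the conserved tyrosine and cysteine ahead of the third complementarity-determining region.
Ighv11-2: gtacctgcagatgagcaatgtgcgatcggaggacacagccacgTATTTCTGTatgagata
Igkv14-126: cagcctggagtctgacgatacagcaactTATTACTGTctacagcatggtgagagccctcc
Ighv12-3: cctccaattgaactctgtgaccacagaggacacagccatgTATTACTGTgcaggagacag
Igkv4-91: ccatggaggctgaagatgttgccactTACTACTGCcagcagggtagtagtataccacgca
Igkv8-21: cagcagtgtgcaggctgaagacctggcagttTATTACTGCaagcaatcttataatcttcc
Ighv1-82: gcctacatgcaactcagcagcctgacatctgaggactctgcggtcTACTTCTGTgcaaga

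On the strand of the transcript, TANTNNTGN stood in the last 60 bases of all 62 V members, of 134 (94.4%) of the 142 V segments under the minimum, and of 6.24% of 55006 other GENCODE genes. In Ighv1-82 the capitals are followed by the codons gca and aga alone, whereas the kappa segments reach further into the third complementarity-determining region.

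Among the 72 members, most fold changes were negative. Of the 72 members, 71 had a fold change below 0 in the authors' deposited table, with a median of -5.44, against a median of -0.0056 over the 14961 genes with an adjusted p. An adjusted p was given for 52 members, of which 34 were negative and 0 positive at an adjusted p below 0.05 in the authors' deposited table. Over all genes with an adjusted p, 24.5% passed this threshold, 13.5% with a negative and 11.0% with a positive fold change. Since the members were chosen on the mean of the same comparison and were measured in the same libraries, these shares are set side by side without a test. By locus, 17 of 27 heavy, 15 of 21 kappa and 2 of 4 lambda members with an adjusted p were negative past the threshold in the authors' deposited table. The medians were -5.51 over the heavy, -6.09 over the kappa and -3.30 over the lambda members in the authors' deposited table. Over all 237 segments the median was -1.33, and over the 165 under the minimum it was -0.44, with 96 of them below 0, in the authors' deposited table. The 24365 genes of any type with a mean under 10 had a median of 0.90, with 7431 of them below 0.

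**Figure D1:**
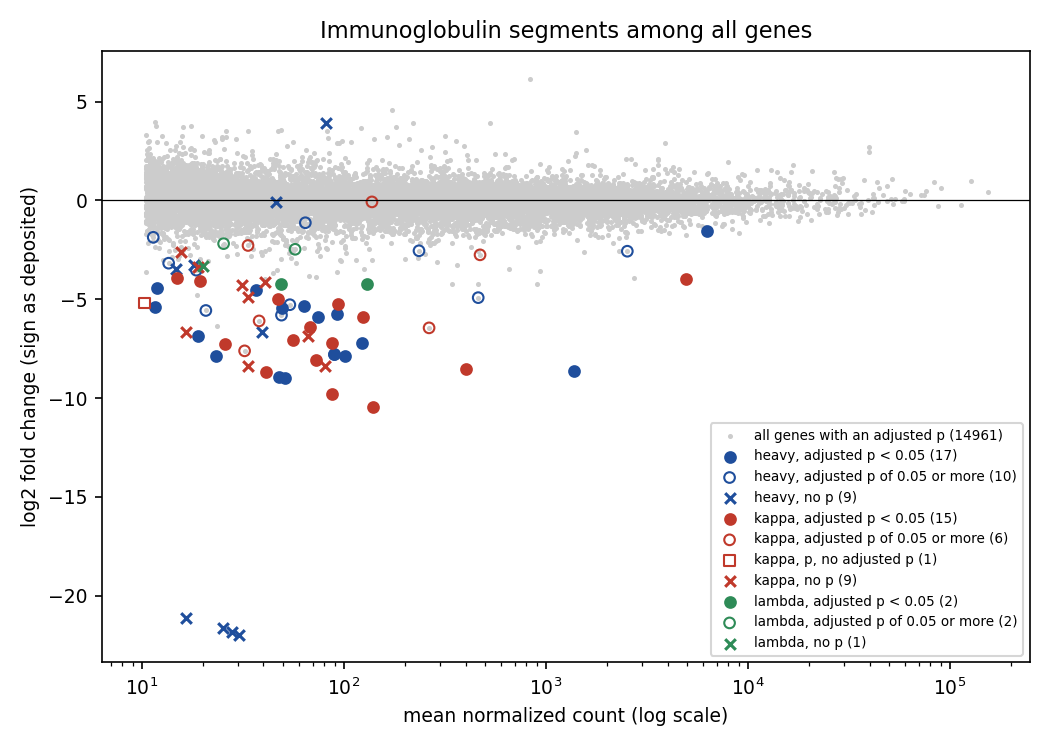
Mean normalized count (log axis) against the log2 fold change with its deposited sign, for all 14961 genes with an adjusted p (grey) and the 72 immunoglobulin members by locus. Filled circles passed an adjusted p of 0.05, open circles did not, the square had a p without an adjusted p and crosses had no p. Most members lie below the grey band, Ighv14-1 lies above 0 at 3.89, Ighv6-6 and Igkv4-61 lie at -0.07, and 4 heavy segments without a p lie near -21.

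The errors of the V members were large for their means. The 42 V members with an adjusted p had SEs between 0.94 and 3.38 with a median of 2.23 in the authors' deposited table. The 8660 tested genes whose mean lay in the same range, from 11.4 to 472.1 normalized counts, include these V members. Their median SE was 0.393, and 38 of the 42 V members lay above the 99th percentile of these genes (1.41) in the authors' deposited table. The sizes of the fold changes are therefore poorly determined. Whether the spread comes from 1 sample or from several was not analysed here.

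A p-value was absent for 19 of the 72 members (26.4%), all of them V segments, in the authors' deposited table. Among the other 15090 genes with a mean of at least 10, p was absent for 26 (0.172%). Counting segments of any mean, 34 of the 83 genes without a p (41.0%) were immunoglobulin segments in the authors' deposited table. The column names are those of a results table of DESeq2, and that program withholds a p where the count of a single library is extreme for its gene. No source used here names the program.

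The constant regions carried most of the signal. Ighm, Igkc and Igha alone made up 67.2% of the summed mean normalized counts of all 237 segments, which in turn were 0.116% of the sum over all genes. Levels of different genes are compared here per kilobase of exon. On that scale, Igkc, the kappa constant region (chr6:70726435-70726966), had 9284 normalized counts per kb in the authors' deposited table. Next were Ighm, the IgM heavy chain (chr12:113418558-113422730), with 3322, and Igha, the IgA heavy chain (chr12:113254830-113260236), with 948 normalized counts per kb, from the means of the authors' deposited table. The IgG chains Ighg2b and Ighg2c followed with 515 and 349 normalized counts per kb, and the IgD chain Ighd had 33.9 and Ighg3 had 4.64, from the means of the authors' deposited table. No spread over samples belongs to these means.

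By isotype, Ighm held 64.2% of the length-scaled heavy chain constant level, Igha 18.3%, Ighg2b 9.94%, Ighg2c 6.74% and Ighd 0.656%. Like all levels here, these shares rest on means over the libraries of the comparison and describe neither genotype by itself. The remaining isotypes were scarce. Ighg1 and Ighe, which type 2 responses commonly induce in B cells, had means of 8.51 and 1.45 normalized counts in the authors' deposited table and fell under the minimum. Among light chains, Igkc held 97.3% of the length-scaled constant level and the lambda regions 2.71%, a ratio of 35.8. Among lambda constant regions, Iglc1 had 107, Iglc2 93.8 and Iglc3 56.2 normalized counts per kb, from the means of the authors' deposited table.

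The fold changes of the constant regions covered a wide range. Ighg2b had the most negative value, -8.61 ± 2.01 (SE) (adjusted p 0.000251) in the authors' deposited table. Ighg3 stood at -5.41 ± 1.50 with an adjusted p of 0.00264, and Ighg2c at -4.92 ± 2.15 (adjusted p 0.0797), in the authors' deposited table. Igha, abundant as it was, had -2.57 ± 1.79 (adjusted p 0.316) in the authors' deposited table. Ighm had the smallest error of all members, -1.56 ± 0.53 (adjusted p 0.0180) in the authors' deposited table. Its co-transcribed neighbour Ighd, which is made from the same primary transcript by alternative splicing, had -1.13 ± 1.17 (adjusted p 0.532) in the authors' deposited table.

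The 95% intervals of Ighm, from -2.60 to -0.52, and of Ighg2b, from -12.5 to -4.67, did not overlap in the authors' deposited table. Both genes come from the same libraries and the difference itself was not tested. Igkc had -3.97 ± 1.21 (adjusted p 0.00717) in the authors' deposited table. Among the lambda regions, Iglc1 had -4.23 ± 1.50 and passed (adjusted p 0.0241) in the authors' deposited table. Iglc2 at -2.47 ± 1.23 and Iglc3 at -2.19 ± 1.70 had adjusted p-values of 0.133 and 0.378 in the authors' deposited table. Of the 10 constant region members, 5 were thus negative past the threshold and 5 did not pass. Over all genes with an adjusted p, 13.5% were negative past it.

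**Figure D2:**
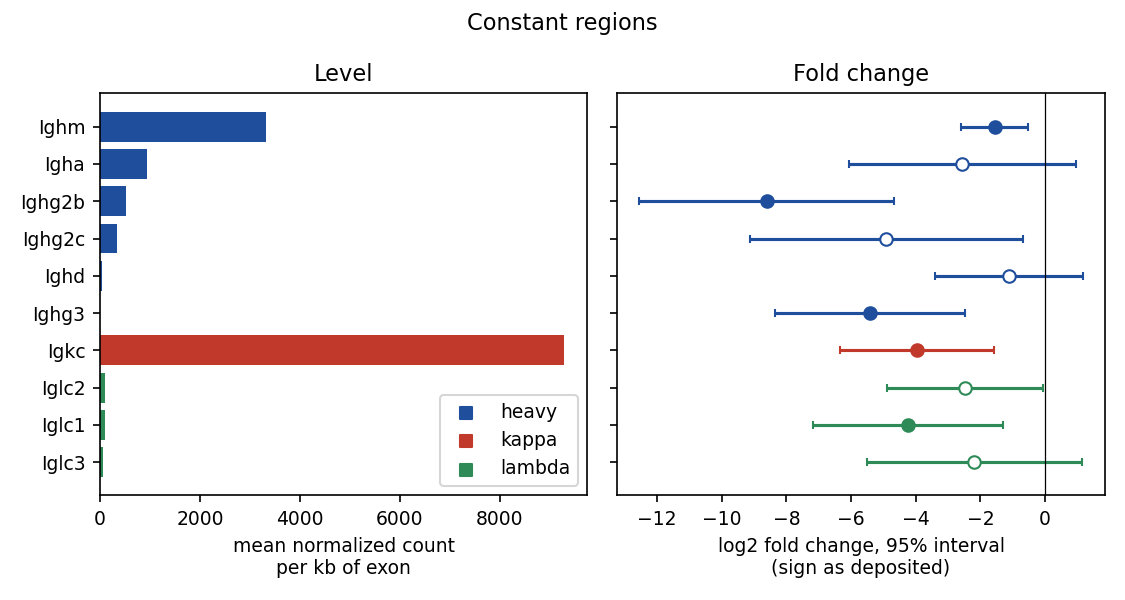
The 10 constant region members, with the mean normalized count per kb of exon (left, bars from 0) and the log2 fold change with its 95% interval and deposited sign (right, filled where the adjusted p was below 0.05). Igkc and Ighm have the highest levels, while Ighg2b has the most negative fold change and Ighm the narrowest interval.

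The V segments were spread over many families, with a different leading segment in each locus. Over all V rows of a locus, the summed length-scaled level was 0.86 times that of the constant regions at the heavy locus, 0.805 times at the kappa locus and 1.58 times at the lambda locus. Of the summed length-scaled level of the 30 heavy V members, Ighv11-2 took 12.4% and the top 3 segments 26.6%. Of that of the 30 kappa V members, Igkv14-126 took 18.7% and the top 3 segments 43.0%. By family, Ighv1 took 57.2% of the heavy V level with 16 members, and Igkv14 took 20.7% of the kappa V level with 3. The V shares, too, rest on means over the libraries and were not analysed in each genotype.

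Ighv11-2 and Igkv14-126 are known from mouse B-1 cells, where they pair in antibodies to phosphatidylcholine. Ighv11-2 (chr12:114048241-114048812) had a mean of 235.5 normalized counts and -2.55 ± 1.94 (adjusted p 0.367) in the authors' deposited table. Igkv14-126 (chr6:67896172-67896642) had a mean of 472.1 normalized counts and -2.75 ± 2.03 (adjusted p 0.350) in the authors' deposited table. Neither passed the threshold, and their intervals include 0. A further pair with that specificity in B-1 cells is Ighv12-3 with Igkv4-91, and Ighv12-3 was singled out after its value was seen. Ighv12-3 (chr12:114366521-114366954) had a mean of 23.2 normalized counts and -7.86 ± 2.92 (adjusted p 0.0330) in the authors' deposited table. Igkv4-91 (chr6:68768555-68769103) had a mean of 87.6 normalized counts and -9.78 ± 1.79, with the smallest adjusted p of all members, 1.57e-06, in the authors' deposited table. A joint level of 2 segments does not show that they were paired in the same cells.

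**Figure D3:**
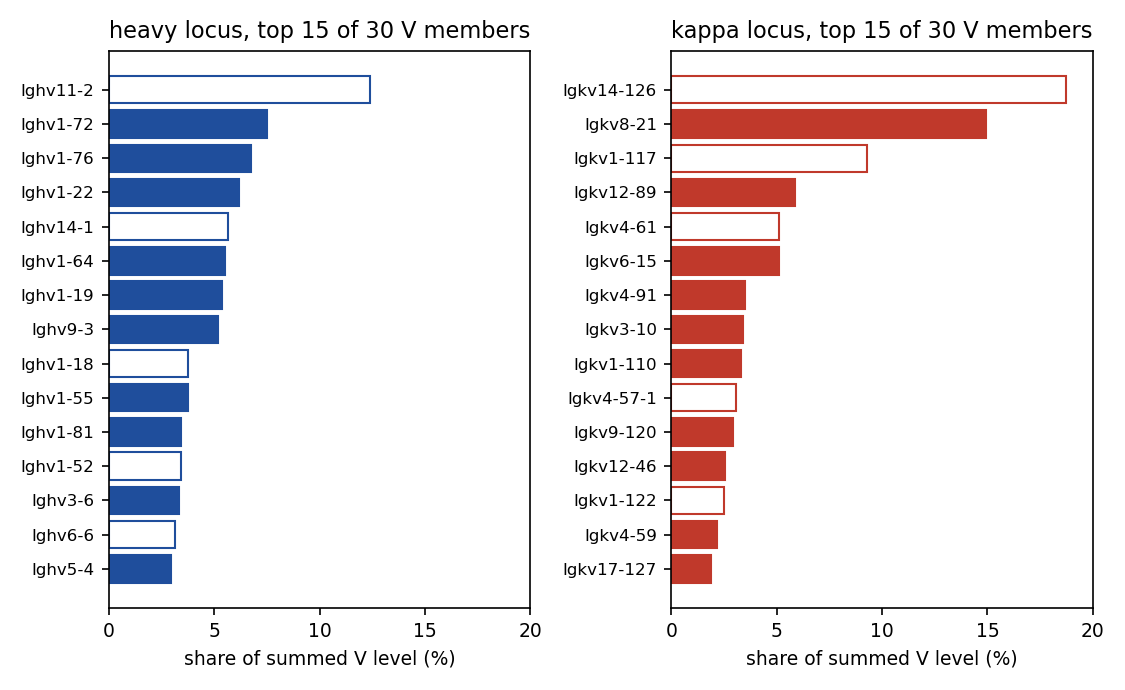
Share of each V segment in the summed length-scaled level of the V members of its locus (percent, bars from 0), for the 15 most abundant of the 30 heavy and the 30 kappa V members. Filled bars passed an adjusted p of 0.05. Ighv11-2 leads the heavy and Igkv14-126 the kappa locus, and both bars are open.

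Igkv8-21 (chr6:70314895-70315472) had a mean of 401.6 normalized counts and -8.50 ± 1.86 (adjusted p 8.57e-05) in the authors' deposited table. Igkv1-117 had a mean of 264.1 normalized counts and -6.45 ± 2.59, and did not pass (adjusted p 0.0521), in the authors' deposited table. Next by level per kb were Igkv12-89 at -10.44 ± 3.38 (adjusted p 0.0122) and Igkv4-61 at -0.07 ± 3.09 (adjusted p 0.991) in the authors' deposited table, both singled out after their values were seen. Kappa segments of similar level thus stood at both ends of the range. At the heavy locus, Ighv1-72 and Ighv1-76 had -7.23 ± 2.28 and -7.87 ± 2.47 with adjusted p-values of 0.00987 and 0.00938 in the authors' deposited table.

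Among heavy V members, the 3 with the smallest p were less abundant than the 3 leading segments. Ighv1-82 had -4.55 ± 0.94 with an adjusted p of 2.68e-05, at a mean of 36.9 normalized counts in the authors' deposited table. Ighv5-4 had -9.01 ± 2.35 and Ighv9-3 -5.89 ± 1.67, with adjusted p-values of 0.0013 and 0.00347 in the authors' deposited table. At the kappa locus, Igkv17-121 had -4.10 ± 1.07 (adjusted p 0.00122) in the authors' deposited table. Within the Ighv1 family, 10 of the 13 members with an adjusted p were negative past the threshold, and 2 of 3 in the Igkv4 family, in the authors' deposited table. Among all members with an adjusted p it was 34 of 52, and over all genes with an adjusted p 13.5%. Whether these families differ from the other members was not tested.

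The lambda V segments are few in the mouse. Iglv1 (chr16:19085017-19085500) held 85.9% of the length-scaled level of both lambda V members, with a mean of 130.02 normalized counts and -4.22 ± 1.57 (adjusted p 0.0339) in the authors' deposited table. Iglv2 had a mean of 20.05 normalized counts and -3.30 ± 2.50 without a p in the authors' deposited table.

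A few members departed from the rest and were singled out after their values were seen. Ighv14-1 was the only member above 0, at 3.89 ± 2.86 with a mean of 81.8 normalized counts and no p in the authors' deposited table. Ighv6-6 (-0.07 ± 2.27, no p) and Igkv4-61 (-0.07 ± 3.09, adjusted p 0.991) stood near 0 in the authors' deposited table. Ighv1-5, Ighv10-1, Ighv1-85 and Ighv4-1 had fitted values from -21.97 to -21.12 without a p, at means from 16.6 to 30.4 normalized counts in the authors' deposited table. These 4 values are not read as fold changes, and why they were fitted so far from the others was not tested. Of 5 genes in the whole table with a value below -15, all are immunoglobulin V segments, the last being Ighv5-6 at -20.34 and a mean of 9.42 normalized counts in the authors' deposited table. No gene had a value above 15.

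The heavy V members lay 174.7 to 2577.3 kb from Ighm and the kappa V members 153.2 to 3115.9 kb from Igkc in mm10. Of the 15 heavy V members nearest to Ighm, 8 had an adjusted p and 4 were negative past the threshold, with a median fold change of -5.57 in the authors' deposited table. Of the 15 farthest, 13 had an adjusted p and 10 were negative past the threshold, with a median of -5.80 in the authors' deposited table. Of the kappa V members, 7 of 9 among the nearest 15 and 7 of 11 among the farthest 15 were negative past the threshold, with medians of -6.64 and -5.24 in the authors' deposited table. Over all genes with an adjusted p, 13.5% were negative past the threshold. Negative values came from both ends of each locus, where 71 of all 72 members were below 0. The difference between near and far was not tested.

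**Figure D4:**
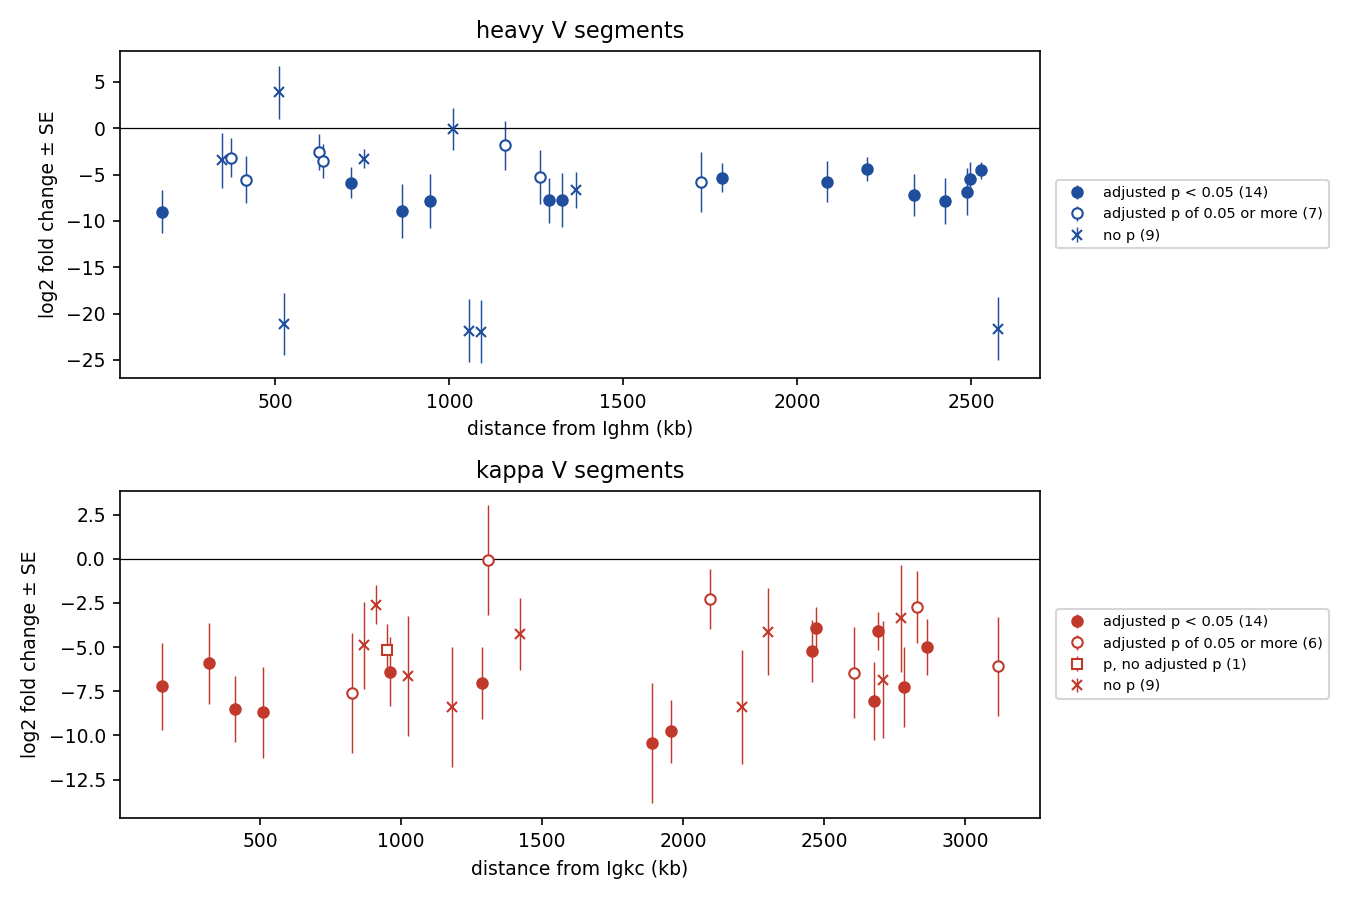
Log2 fold change ± SE, with its deposited sign, of the 30 heavy (top) and 30 kappa (bottom) V members against their distance from Ighm and Igkc in kb. Filled circles passed an adjusted p of 0.05, open circles did not, and crosses had no p. Members past the threshold are found near to and far from the constant region.

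V segments of a family resemble each other, and reads can be shared between them. Of all 50-base windows of a V member's GENCODE transcripts, a median of 77.4% occurred in no other GENCODE gene, and at 100 bases the median was 100%. No source used here gives the read length. For 6 V members fewer than 50% of the 50-base windows were their own, namely Ighv1-72, Igkv4-59, Ighv1-52, Igkv4-61, Igkv5-45 and Igkv1-110, and their values are uncertain for this reason. Igkc, Ighm and Igha had 100% of such windows to themselves. Iglc3 had 77.7% and Ighg2c 94.5%. In the annotation, Igkc overlaps Gm30211, Iglc2 overlaps Iglj2, Ighv1-5 overlaps Mir7094-2, and Iglc1, Iglc3 and Iglv1 overlap 2010309G21Rik, so that these 6 values could include reads of another gene.

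The least distinct was Ighv1-72, with 7.49% of its 50-base windows its own and 68.3% shared with Ighv1-62-3. Their last 300 bases lie at chr12:115757984-115758283 and chr12:115460999-115461298 on the minus strand of mm10. They are shown because they tell how little separates Ighv1-72 from Ighv1-62-3. Capitals mark the bases that differ, 3 of 300.
Ighv1-72: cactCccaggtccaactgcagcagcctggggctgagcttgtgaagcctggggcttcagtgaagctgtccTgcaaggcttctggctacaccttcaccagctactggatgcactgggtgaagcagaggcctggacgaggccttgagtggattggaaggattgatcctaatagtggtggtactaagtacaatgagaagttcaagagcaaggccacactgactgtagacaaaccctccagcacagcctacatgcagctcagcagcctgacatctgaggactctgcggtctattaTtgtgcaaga
Ighv1-62-3: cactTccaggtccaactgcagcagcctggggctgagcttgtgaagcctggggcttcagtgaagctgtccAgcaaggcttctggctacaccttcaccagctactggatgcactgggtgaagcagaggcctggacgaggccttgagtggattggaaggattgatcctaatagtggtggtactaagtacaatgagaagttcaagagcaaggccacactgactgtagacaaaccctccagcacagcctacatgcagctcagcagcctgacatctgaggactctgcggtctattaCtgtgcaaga

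Ighv1-72 had a mean of 122.3 normalized counts against 1.56 for Ighv1-62-3 in the authors' deposited table. No source used here states how reads that match both segments were assigned, so these means may not give the level of each. Ighv1-62-3 was under the minimum, and its fold change was -3.10 ± 2.60 in the authors' deposited table.

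The choice of the minimum mattered for what counts as a member. Just inside it stood Igkv5-45 with a mean of 10.3 and Ighv1-9 with 11.4 normalized counts, and just outside it Igkv3-4 with 9.89 and Ighv1-53 with 9.87, in the authors' deposited table. Igkv5-45 had a p of 0.000601 but no adjusted p, since adjusted p-values in the authors' deposited table begin at a mean of 10.5. Of the 165 segments under the minimum, 96 had a fold change below 0. Their median was -0.44, against 0.90 over all genes with a mean under 10. The highest J and D means were 2.27 (Igkj5) and 0.404 (Ighd4-1) normalized counts in the authors' deposited table. A segment could reach the minimum through a high level in a single group or library, so that counts and medians over the members lend no support to a difference.

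Genes of the B lineage were set beside the segments. Of 17 plasma cell genes with an adjusted p, 10 were negative and 1 positive past the threshold, with a median of -0.95 in the authors' deposited table. Over all genes with an adjusted p, 13.5% were negative and 11.0% positive past the threshold. The joining chain gene Jchain had -3.57 ± 1.37 (adjusted p 0.0393) and Mzb1, a chaperone of immunoglobulin assembly, -3.85 ± 1.28 (adjusted p 0.0152) in the authors' deposited table. Derl3, a factor of protein disposal from the endoplasmic reticulum, had -2.76 ± 0.84 and the prolyl isomerase Fkbp11 -2.36 ± 0.89 in the authors' deposited table, with adjusted p-values of 0.00733 and 0.0351. Their means were low, with 73.1 normalized counts for Mzb1, 17.4 for Derl3 and 15.6 for Fkbp11, against 939.2 for Jchain, in the authors' deposited table.

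Sdc1, which encodes CD138, had -1.19 ± 0.41 (adjusted p 0.0191) and the transcription factor Irf4 -0.95 ± 0.26 (adjusted p 0.00209) in the authors' deposited table. Their means were 136.6 normalized counts for Sdc1 and 871.2 for Irf4, and which cells this RNA came from was not tested. Txndc5, Creld2 and Sec11c, which serve folding and processing of secreted proteins in many cell types, had -1.12, -0.67 and -0.48, and the receptor gene Tnfrsf13b -0.60, all past the threshold in the authors' deposited table. On the positive side was Prdm1, which encodes BLIMP-1 and is also used by ILCs and T cells, at 0.57 ± 0.20 (adjusted p 0.0253) in the authors' deposited table. Xbp1, a driver of secretion, had 0.19 ± 0.14 and did not pass (adjusted p 0.331) in the authors' deposited table.

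Genes of the mature B cell gave a different count. Of 17 with an adjusted p, 1 was negative and 1 positive past the threshold, with 13 of the 17 below 0, in the authors' deposited table. The shares over all genes with an adjusted p were 13.5% negative and 11.0% positive. The negative gene was Cd79b, a signalling chain of the B cell receptor, at -0.88 ± 0.23 (adjusted p 0.00116), and the positive gene Cd72, a coreceptor, at 0.59 ± 0.14 (adjusted p 0.000261), in the authors' deposited table. Cd79b and Cd72 had means of 826.6 and 910.6 normalized counts, and which cells their RNA came from was not tested. The defining genes Ms4a1 and Cd79a were present at means of 76.3 and 115 normalized counts in the authors' deposited table. Ms4a1 had -1.0004 ± 1.12 and Cd79a -0.61 ± 1.04, and the adjusted p-values were 0.569 for Ms4a1 and 0.725 for Cd79a in the authors' deposited table. Whether the plasma cell and the B cell genes differ from each other was not tested.

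**Figure D5:**
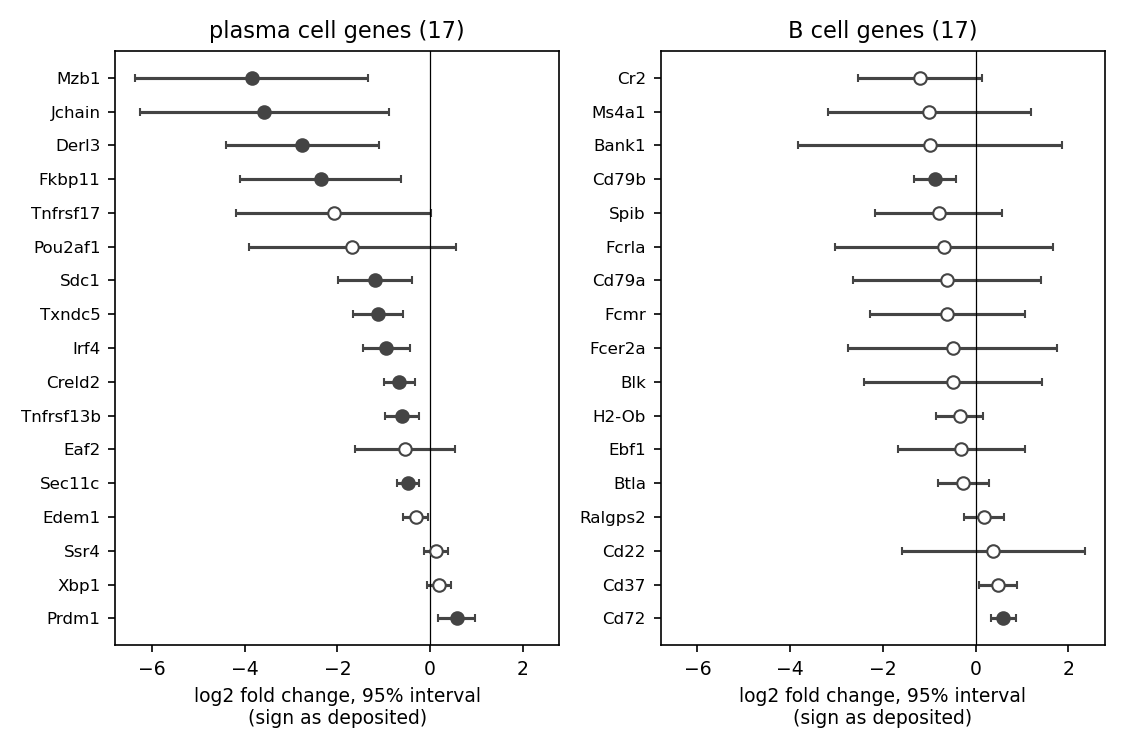
Log2 fold change with its 95% interval and deposited sign for the 17 plasma cell (left) and 17 B cell genes (right) with an adjusted p, filled where it was below 0.05. On the left, Mzb1, Jchain, Derl3 and Fkbp11 (filled) and Tnfrsf17 (open, -2.09) lie below -2, while on the right most intervals include 0.

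The sorted cells carried the genes of their label. Per kb of exon, the lineage factor Gata3 had 11199, the growth factor gene Areg 22297 and the IL-33 receptor gene Il1rl1 2457 normalized counts, from the means of the authors' deposited table. On the same scale the 10 ILC2 genes ran from 97.2 (Thy1) to 22297 (Areg), the B cell genes from 1.12 (Pax5) to 577.7 (Cd79b) and the plasma cell genes from 1.07 (Glcci1) to 1051 (Creld2) normalized counts per kb, from the means of the authors' deposited table, so that the lists overlapped. Igkc at 9284 and Ighm at 3322 normalized counts per kb lay above every gene of the B cell and plasma cell lists, from the means of the authors' deposited table. Of the 10 ILC2 genes, 3 were negative and 1 positive past the threshold, with a median of 0.13 in the authors' deposited table. The shares over all genes with an adjusted p were 13.5% negative and 11.0% positive. Levels of these lists in each genotype were not analysed here. RNA of defining B cell and plasma cell genes was thus present beside the segments, and its part in their fold changes was not tested.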

How the data were processed

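RNA of sorted lung ILC2s from 3 KO and 3 WT samples was sequenced after full-length cDNA synthesis, per the labels' protocols. HISAT2, Cufflinks and mm10 are named in the submitters' processing notes; no source used here gives their versions, the counter or its handling of strand. Per the file headers, the authors' deposited table holds, for each gene, the mean of normalized counts over libraries (a signal), the log2 fold change and its SE, the score of the test, the p-value, and the p-value after adjustment. None of the 12 per-sample columns, which carry 6 names, could be matched to a label. Their values came into view while the file format was being examined but were used for no result, so the depth per sample was not used here and the planned count fit was replaced by the authors' comparison, with the deposited SE as the measure of precision. Replicates are pools of mice; which libraries the p-values rest on is not stated.

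The members, lists and named genes were chosen with earlier results of these data known. Named genes were all C members, the 3 V members per locus with the highest mean and the 3 with the smallest p, members next to the minimum, and B lineage genes past the threshold with the most abundant gene of each list. Other genes named, among them Ms4a1, Cd79a, Xbp1, Tnfrsf17, Pigr and the ends of the ranges per kb, were chosen after their values were seen. Coordinates, exonic lengths and transcripts came from GENCODE M21 (mm10), which held all 237 segment identifiers; loci were assigned by chromosome. Where a symbol had 2 rows (Cd37), the GENCODE identifier was kept. Some genes of the lists are not reported here. Members overlapping another gene numbered 6. The 95% intervals assume a normal distribution. The adjustment of p-values and the share of windows found in no other gene were tested on simulated data. Python 3.11.15, pandas 2.3.3, numpy 2.4.6 and matplotlib 3.10.9 were used.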

Additional observations from a re-analysis of the deposited data

How the results depend on the processing

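Across the thresholds, adjustments and minima tried, 0 segments were positive past the threshold. Every member with a p had a fold change below 0, so these settings could not have given a positive one. At an adjusted p below 0.01, 20 segments were negative (10 heavy, 0 lambda), and 7 B lineage genes, against 34 segments (17 heavy, 2 lambda) and 11 B lineage genes at 0.05. Adjusted over every gene with a p, 27 segments were negative, of which 0 were lambda. With a minimum mean of 50, 21 of 30 segments with an adjusted p were negative, and with 100, 9 of 15. Fewer segments entered at these minima. Over all genes with an adjusted p, 13.5% were negative at 0.05. The share over all genes at the other settings was not analysed here, so these counts are not set against the whole table. Without a minimum the median log2 fold change was -1.33 over 237 segments, -0.70 over the heavy and -1.79 over the kappa segments. Not scaled by length, Ighm held 58.4%, Igha 23.6% and Ighg2b 12.9% of heavy constant counts and Igkc 97.4% of light constant counts. The 4027 tested genes within the length range of all members, V and C, had a median of -0.18, and centring the members on it gave -5.26. In the narrower length range of the V members, 124 tested genes outside the members had a median of -0.076. Of 52 members, 8 lost their call when adjusted over every gene, 14 at 0.01, and 5 gained it at 0.1. No paired analysis was possible because the per-sample columns carry no sample label, and leaving out each replicate and the choice between TMM and DESeq2 size factors were not run for the same reason.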

Other observations

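Receptors of the T cell, built by the same recombination, gave other values. Of 27 T cell receptor segments with a mean of at least 10 normalized counts, all had an adjusted p, 1 was negative and 0 positive past the threshold, and the median fold change was 0.078 in the authors' deposited table. Over all genes with an adjusted p, 24.5% passed the threshold in either direction.

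Genes of the pre-B cell and of recombination were scarce. Vpreb1, Vpreb2 and Igll1 (surrogate light chain), and Rag1, Rag2 and Dntt (V(D)J recombination) had means from 0.349 to 6.93 normalized counts, and none of the 6 had an adjusted p in the authors' deposited table. Of 7 Fc and immunoglobulin receptor genes with an adjusted p, 0 passed 0.05, against 24.5% over all genes, in the authors' deposited table. Fcer1g, the common gamma chain of Fc receptors and the most abundant of them at a mean of 201.2 normalized counts, had -0.19 ± 0.28 in the authors' deposited table. Pigr, which carries polymeric IgA and IgM across epithelia, had -2.83 ± 1.62 (adjusted p 0.203) in the authors' deposited table.

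Immunoglobulin pseudogenes stayed low. Of 105 with a row, 0 reached a mean of 10 normalized counts, and 31 had a fold change below 0 in the authors' deposited table, against 7431 of all 24365 genes with a mean under 10.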
